A study of Mus musculus with 12 samples.

Results

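Expression of 10 genes of the Wnt pathway was followed in 12 mouse pancreas tumours. They were the ligand genes Wnt4, Wnt2, Wnt5a, Wnt7a, Wnt7b and Wnt10a, the feedback gene Axin2, the secreted antagonist genes Sfrp1 and Sfrp2, and the Dickkopf family gene Dkk3. The genes were taken by symbol from 30142 genes measured on a one-colour expression array. Where a gene has several probe sets, the one used is chosen by its mean over the 12 arrays, but each of the 10 genes had 1 probe set, so that mean decided nothing here. The genes were nevertheless listed with earlier results of these data known, so no p below is independent evidence for them.

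The study depleted FAP-positive or aSMA-positive cells in PKT mice and compared the tumours with tumours that kept these cells. Fap encodes the stromal surface protease fibroblast activation protein, and Acta2 encodes the contractile protein abbreviated aSMA. The 4 groups of 3 tumours, from 3 mice each per the series' design text, were PKT FAP depleted, PKT FAP-TK control (no depletion), PKT aSMA depleted and PKT aSMA-TK control (no depletion). TK is thymidine kinase, taken here to be a form that makes a cell sensitive to ganciclovir. Every tumour carries the PKT background, whose alleles the labels do not spell out, and the labels list ganciclovir at 50 ug per kg for all 12. They do not say whether the controls received it, which promoter drove the kinase, or how old the mice were.

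Wnt proteins are secreted, lipid-modified ligands that bind Frizzled receptors together with Lrp5 or Lrp6, or with Ror receptors. In the canonical branch, binding stops a destruction complex built on Axin from degrading beta-catenin, which then activates target genes with TCF and LEF factors. Secreted Frizzled-related proteins such as Sfrp1 and Sfrp2 bind Wnt ligands outside the cell. Dkk3 is the divergent member of the Dickkopf family. Axin2 is a direct target of beta-catenin and encodes an inhibitor of the same pathway, so its transcript is widely read as a measure of canonical signalling.

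The values are log2 units after quantile normalization between arrays, and they were low for most of the 10 genes. Every array carries 5222 probe sets named as negative controls, and a gene was counted as above background where its deposited value exceeded their 95th percentile on the same array. By that measure Sfrp1 was above background on 6 arrays, 3 of the group labelled aSMA depleted and 1 of each other group, and the other 9 genes on 0 arrays. Dkk3 came closest, with its highest value at percentile 94.3 of the negative controls, followed by Wnt4 at 91.7. Wnt10a stayed between percentiles 7.16 and 24.8. Against the 23 probe sets named as background controls, a reference chosen after the data were seen, Dkk3 exceeded the 95th percentile on 12 arrays, Wnt4 and Sfrp1 on 11, Wnt5a on 10, Axin2 on 9, Wnt7a on 5 and Sfrp2 on 3, while Wnt2, Wnt7b and Wnt10a did so on 0. The differences reported for the dim genes are therefore differences of probe signal close to background. 

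**Figure D1:**
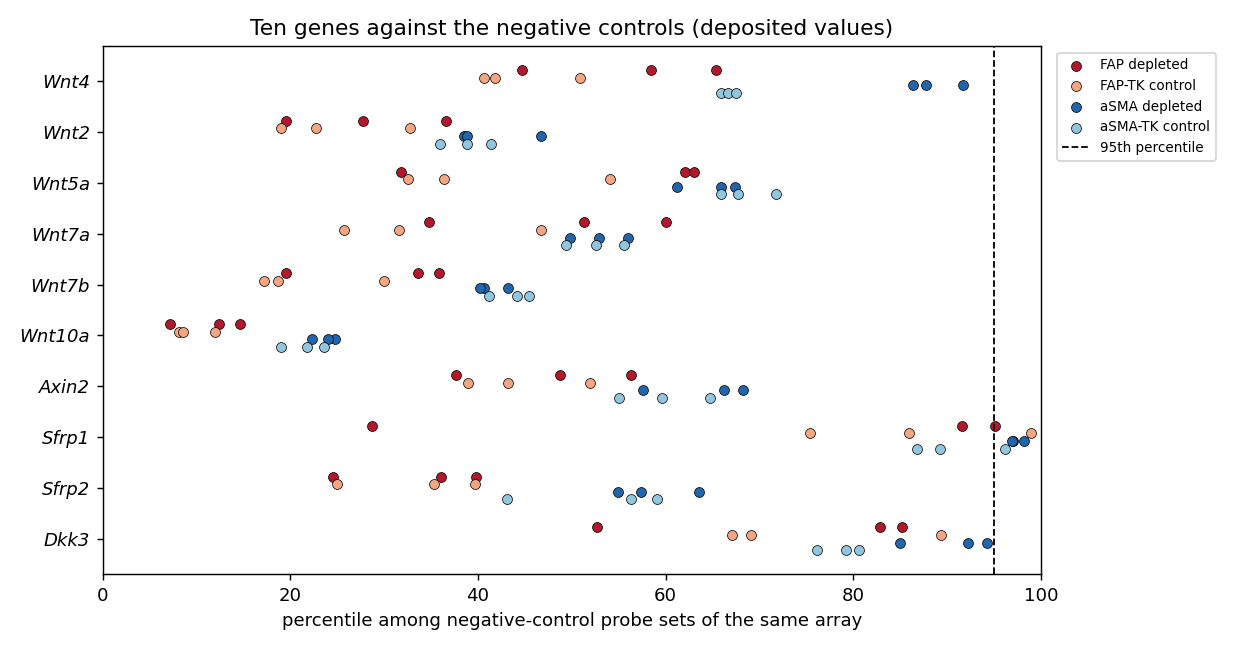
Percentile of each of the 10 genes among the negative-control probe sets of the same array (x axis, deposited values), 1 point per tumour, with the 95th percentile as a dashed line. Sfrp1 lies beyond the line on 6 arrays, and no point of the other 9 genes does.

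Background differed by line. The median of the negative controls was 5.83 ± 0.50 (SD, n = 3) in the FAP depleted group against 6.17 ± 0.48 in FAP-TK control tumours. It was 4.65 ± 0.20 in tumours labelled aSMA depleted against 4.58 ± 0.14 in aSMA-TK control tumours. On every array it lay above the median of all deposited probe sets. That median was 4.52 to 4.78 in the FAP depleted and 4.52 to 4.72 in the FAP-TK control group. It was 3.98 to 4.09 in the group labelled aSMA depleted and 4.03 to 4.15 in the aSMA-TK controls. The negative controls are thus a strict reference. On 3 arrays (FAP depleted replicate 2, FAP-TK control replicates 1 and 3) the positive controls exceeded the negative controls by 2.69 to 2.99, against 4.32 to 4.89 on the other 9. Fap was lower in the FAP depleted tumours, at -1.11 ± 0.37 (SE), without overlap but with an adjusted p of 1.00. In this comparison 8.10% of all genes did not overlap, in either direction. Fap was above background on 0 arrays. It was also lower without overlap in the aSMA-TK than in the FAP-TK controls (-0.67 ± 0.37), as were 13.8% of all genes. Acta2 overlapped between the aSMA groups, with 10.13, 13.86 and 15.28 in the tumours labelled aSMA depleted against 12.26, 10.85 and 11.12 in the aSMA-TK controls. Its mean was not lower in the group labelled aSMA depleted (1.68 ± 1.71, adjusted p = 0.949). That group is named by its label throughout. In whole tumours, fewer cells of a type and less RNA per cell cannot be told apart. By Xist and the Y-linked gene Uty, 2 of the 3 tumours labelled aSMA depleted came from females, as did 1 of 3 in each other group.

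The promoters of the 10 genes are shown for 3 of them, because Wnt4 and Sfrp2 passed a test between the depleted groups of the lines and Axin2 reports the pathway. Neither Wnt4 nor Sfrp2 passed between depleted and control tumours of a line. RefSeq's promoter table (GRCm38.p6) holds 5 of the 10 genes, Wnt4, Wnt2, Wnt7a, Axin2 and Sfrp2, with 250 bases before and 50 after the start site that the table uses. That site is the outer edge of the annotated gene for Wnt4 and Wnt7a, and lies inside the annotated gene for Wnt2, Axin2 and Sfrp2. Capitals mark matches, on either strand, to CTTTG, the core letters of a TCF and LEF site, or to GGGCGG, the letters of a GC box.
Wnt4, chr4:137277385-137277684, plus strand: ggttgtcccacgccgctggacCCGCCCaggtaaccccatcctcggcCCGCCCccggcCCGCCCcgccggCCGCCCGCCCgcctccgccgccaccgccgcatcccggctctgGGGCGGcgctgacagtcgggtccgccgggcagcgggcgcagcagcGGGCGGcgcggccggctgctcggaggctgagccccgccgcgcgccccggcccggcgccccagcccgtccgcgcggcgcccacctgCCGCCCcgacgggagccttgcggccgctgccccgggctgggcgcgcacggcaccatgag
Sfrp2, chr3:83766071-83766370, plus strand: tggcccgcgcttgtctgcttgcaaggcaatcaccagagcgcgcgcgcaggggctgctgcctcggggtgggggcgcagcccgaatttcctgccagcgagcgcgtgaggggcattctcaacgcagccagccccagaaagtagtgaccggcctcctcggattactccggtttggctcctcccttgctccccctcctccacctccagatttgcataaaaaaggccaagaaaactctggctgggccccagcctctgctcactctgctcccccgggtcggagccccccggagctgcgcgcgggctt
Axin2, chr11:108920099-108920398, plus strand: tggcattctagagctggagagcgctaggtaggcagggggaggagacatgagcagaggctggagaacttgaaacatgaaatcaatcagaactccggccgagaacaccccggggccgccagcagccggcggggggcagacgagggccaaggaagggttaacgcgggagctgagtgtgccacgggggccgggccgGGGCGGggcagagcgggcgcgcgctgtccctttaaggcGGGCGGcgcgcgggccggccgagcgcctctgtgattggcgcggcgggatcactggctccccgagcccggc
CTTTG had 0 matches in each of the 5 windows, while 53.9% of the 32851 promoters of that length in the table hold it. GGGCGG, held by 35.7% of them, matched 8 times in Wnt4, 6 in Wnt7a, 2 each in Wnt2 and Axin2 and 0 in Sfrp2. The Wnt4 window is 84.3% G and C, against 66.0% in Sfrp2 and 70.0% in Axin2. A match is a description of letters, and no binding was measured here.

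Among the ligand genes, Wnt4 alone separated depleted from control tumours, and did so in the aSMA line. In the mouse it is required for kidney tubule formation and for development of the female gonad. The gene lies at chr4:137277635-137299501 (GRCm38.p6). Its log2 values were 8.12, 7.41 and 7.25 in the tumours labelled aSMA depleted against 5.58, 5.61 and 6.05 in the aSMA-TK controls. The lowest tumour labelled depleted thus lay above the highest control. The difference was 1.85 ± 0.23 (SE, n = 3 per group, 95% interval 1.32 to 2.37). Its unadjusted p of 1.57e-05 was rank 1 of the 30142 genes in this comparison, yet the limma adjusted p over all genes was 0.474 and Wnt4 was not called. The exact permutation p was 0.1, two-sided, the smallest that 3 tumours against 3 can give. A call appeared in 1 of the settings run. Without replicate 3 of the group labelled aSMA depleted, the difference was 2.02 and the adjusted p 0.0466. Over the other 11 arrays left out in turn the difference stayed between 1.59 and 2.00, with no call.

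Wnt4 in the FAP line was 5.76, 5.54 and 6.07 in the depleted tumours against 5.54, 5.43 and 5.29 in the FAP-TK controls. These groups met at the lowest depleted and the highest control tumour. The difference was 0.37 ± 0.23 (adjusted p = 1.00). The difference between the depletion effects, aSMA line minus FAP line, was 1.47 ± 0.33 and did not pass either (adjusted p = 0.829, unadjusted p = 0.00132). Between the groups labelled depleted, Wnt4 was higher in the aSMA line by 1.80 ± 0.23 and passed over all genes (adjusted p = 0.00709), where 2.74% of all genes were called higher. The call held whichever single array was dropped, with an adjusted p of at most 0.0305, and ended when only these groups were fitted (adjusted p = 0.0659). With the values as deposited, that difference was 1.11 and still passed. The line and the lower background of its arrays cannot be told apart in this comparison. The aSMA-TK controls were at 0.33 ± 0.23 over the FAP-TK controls (adjusted p = 0.386), a difference that turned to -0.47 with the values as deposited and to -0.02 with median centring.

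Stromal and epithelial markers differed in how they stood beside Wnt4, and their part in its values was not tested. The mean of 11 measured fibroblast markers of 12 listed was 8.92, 9.61 and 10.24 in the tumours labelled aSMA depleted against 8.98, 8.95 and 8.22 in the aSMA-TK controls, and 11 of 11 markers were higher, of which 0 passed. Of these markers 5 were above background on at least 6 arrays. The highest Wnt4 value, 8.12, belonged to the tumour with the lowest fibroblast mean of its group, 8.92, which lay within the range of the controls. Ductal epithelial markers, 11 of 12 above background on at least 6 arrays, had a mean of 14.50 to 14.58 in the tumours labelled aSMA depleted and 14.15 to 14.85 in the aSMA-TK controls. Wnt4 was higher in the tumours labelled depleted within each sex, by 2.29 among males (1 tumour against 2) and 1.75 among females (2 against 1). With sex as a covariate, a fit chosen after the data were seen, its difference was 1.95 (adjusted p = 0.220). The part of sex in the Wnt4 values was not tested.

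**Figure D2:**
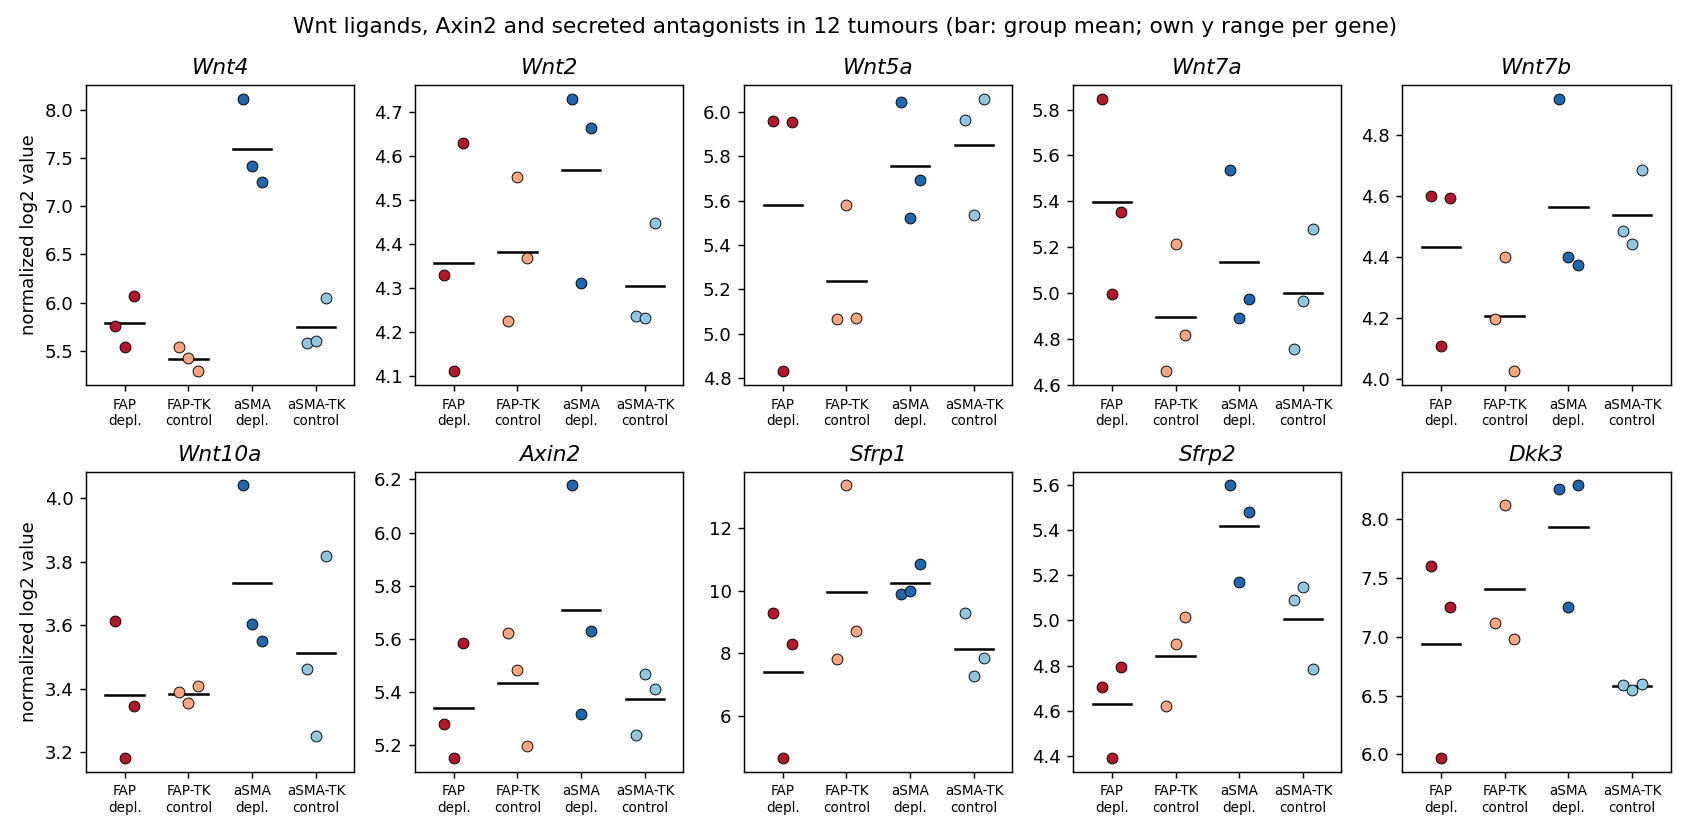
Normalized log2 values of the 10 genes by group, 1 point per tumour, with a bar at each group mean and a separate y range for each gene. Wnt4, Sfrp1, Sfrp2 and Dkk3 separate the tumours labelled aSMA depleted from the aSMA-TK controls, and no gene separates the FAP groups.

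The other 5 ligand genes did not separate depleted from control tumours in either line. Wnt5a, which in the mouse acts largely through Ror2 and without beta-catenin, had 5.96, 4.83 and 5.96 in the FAP depleted tumours against 5.07, 5.58 and 5.07 in the FAP-TK controls. Depleted replicates 1 and 3 lay above all the controls and replicate 2 below them. The difference was 0.34 ± 0.31 (adjusted p = 1.00) and moved both ways with single tumours, being 0.72 when depleted replicate 2 was dropped (adjusted p = 0.393) and 0.15 when depleted replicate 1 or 3 was. Wnt5a in the aSMA line was 6.04, 5.52 and 5.69 in the tumours labelled depleted against 5.96, 5.54 and 6.06 in the controls, a difference of -0.10 ± 0.31 whose 95% interval ran from -0.79 to 0.59. That sign turned to 0.00477 without aSMA-TK control replicate 3 and to 0.0168 without replicate 2 of the group labelled depleted.

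Wnt7a, which patterns the dorsal side of the mouse limb, also overlapped between the FAP groups. Its values were 5.85, 5.00 and 5.35 in the FAP depleted tumours against 4.66, 5.21 and 4.82 in the FAP-TK controls. Depleted replicate 2 lay below control replicate 2 and above the other controls, and the difference was 0.50 ± 0.26 (adjusted p = 1.00). Wnt7b, its close relative, had 4.60, 4.11 and 4.59 in the FAP depleted tumours against 4.20, 4.40 and 4.03 in the controls, a difference of 0.22 ± 0.19. With 1 FAP-line tumour left out, the Wnt7a difference ran from 0.28, without depleted replicate 1, to 0.70, without depleted replicate 2. The Wnt7b difference ran from 0.13, without control replicate 3, to 0.39, without depleted replicate 2. Wnt7a in the aSMA line was 5.54, 4.89 and 4.97 in the tumours labelled depleted against 4.75, 4.96 and 5.28 in the controls. Wnt7b was 4.92, 4.40 and 4.38 against 4.49, 4.44 and 4.69 in the same order of groups. Both differences were close to 0, at 0.14 ± 0.26 and 0.03 ± 0.19, and both turned negative, to -0.065 and -0.15, without replicate 1 of the group labelled depleted.

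Wnt2, a ligand of the developing lung mesenchyme in the mouse, stayed within 4.11 and 4.73 on all 12 arrays. Its difference was -0.02 ± 0.16 in the FAP line and 0.26 ± 0.16 in the aSMA line, where the values were 4.73, 4.31 and 4.66 in the tumours labelled depleted and 4.24, 4.23 and 4.45 in the controls. Wnt10a, a ligand of tooth and skin appendage development, ran from 3.18 to 4.04, with differences of -0.00476 ± 0.18 in the FAP line and 0.22 ± 0.18 in the aSMA line. Both genes lay below both background references on all 12 arrays.

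Axin2, the transcript that reports canonical signalling, did not differ beyond its spread. Its values were 5.28, 5.15 and 5.59 in the FAP depleted tumours against 5.62, 5.48 and 5.20 in the FAP-TK controls, a difference of -0.10 ± 0.21 (adjusted p = 1.00, 95% interval -0.57 to 0.38). The aSMA-line values were 6.18, 5.32 and 5.63 in the tumours labelled depleted against 5.24, 5.47 and 5.41 in the aSMA-TK controls. Replicate 1 of the group labelled depleted stood highest and replicate 2 lay among the controls. The difference was 0.34 ± 0.21 (adjusted p = 0.944, 95% interval -0.14 to 0.81), and ran from 0.10 without replicate 1 to 0.53 without replicate 2. Replicate 1 of the group labelled depleted held the highest value of 6 of the 10 genes, Wnt4, Wnt2, Wnt7b, Wnt10a, Axin2 and Sfrp2. This tumour also had the lowest mean of the acinar markers on any array, 5.89, and the highest of the lymphocyte and islet markers, 5.14 and 8.52. The part of these markers in the result was not tested.

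Sfrp1 had the widest range of the 10 genes, 4.64 to 13.37, with an SD over the 12 arrays above that of 99.6% of all genes. Its values were 9.28, 4.64 and 8.31 in the FAP depleted tumours against 7.81, 13.37 and 8.71 in the FAP-TK controls. The highest and the lowest tumour of the study were thus replicate 2 of each FAP group, and the other 4 tumours overlapped. The difference was -2.55 ± 1.49 (adjusted p = 1.00). Leaving out control replicate 1 gave -3.63. Leaving out the 3 arrays of low control-probe separation gave -4.57, with control replicate 2, at 13.37, the only FAP-TK control left. In the other direction, leaving out control replicate 2 gave -0.85, leaving out depleted replicate 2 gave -1.17, and leaving out both gave 0.54, a setting chosen after the data were seen. FAP depleted replicate 2 also had the lowest fibroblast mean, 7.11, and held the lowest value of 7 of the 10 genes, those other than Wnt4, Wnt7a and Wnt7b. Its macrophage and endothelial marker means, 7.32 and 5.26, were also the lowest of the 12 arrays. This array had the lowest control-probe separation, 2.69. The part of array quality in these low values was not tested.

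Among aSMA-line tumours Sfrp1 was 9.88, 9.99 and 10.85 in the tumours labelled depleted against 9.28, 7.27 and 7.86 in the controls. These groups did not overlap, and the difference was 2.11 ± 1.49 (adjusted p = 0.944). The 95% interval ran from -1.24 to 5.45. The effects in the lines differed by 4.66 ± 2.11 (adjusted p = 0.829). The genes whose values followed Sfrp1 most closely over the 12 arrays, among 2578 genes above background on at least 6 of them, were Itm2a (Pearson r = 0.915, Spearman rho = 0.902) and Vim (r = 0.913, rho = 0.916), given as a description with no test. Vim encodes the intermediate filament vimentin of mesenchymal cells, and Itm2a an integral membrane protein. The points share line, array background and tumour composition.

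Dkk3 was higher on average in the tumours labelled aSMA depleted than in their controls, without passing over all genes. Its values were 8.26, 7.25 and 8.29 in the tumours labelled aSMA depleted against 6.59, 6.55 and 6.60 in the aSMA-TK controls. The controls lay within a narrow band below every tumour labelled depleted. The difference was 1.35 ± 0.45 (95% interval 0.33 to 2.37, unadjusted p = 0.0144, adjusted p = 0.944), and it ran from 1.17 to 1.69 with 1 array of the line left out. In the FAP line Dkk3 had 7.60, 5.97 and 7.25 in the depleted tumours against 7.11, 8.12 and 6.98 in the controls, a difference of -0.46 ± 0.45. It ran from -0.79 without depleted replicate 1 to 0.0212 without depleted replicate 2, and was -0.11 without control replicate 2. The effects in the lines differed by 1.82 ± 0.64 (adjusted p = 0.829).

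Sfrp2 separated the aSMA groups narrowly. It had 5.60, 5.17 and 5.48 in the tumours labelled depleted against 5.09, 5.15 and 4.78 in the controls. The lowest tumour labelled depleted, 5.17, lay just above the highest control, 5.15. The difference was 0.41 ± 0.17 (unadjusted p = 0.0349, adjusted p = 0.944). In the FAP line it was 4.70, 4.39 and 4.80 in the depleted tumours against 4.62, 4.89 and 5.01 in the controls, a difference of -0.21 ± 0.17. Between the groups labelled depleted, Sfrp2 was higher in the aSMA line by 0.78 ± 0.17 and passed over all genes (adjusted p = 0.0314). That call ended without FAP depleted replicate 1 (adjusted p = 0.0815), 2 (0.0917) or 3 (0.0589), without replicate 1 (0.0746) or 3 (0.0921) of the group labelled aSMA depleted, and with the values as deposited, where the difference was 0.15 (adjusted p = 0.525).

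**Figure D3:**
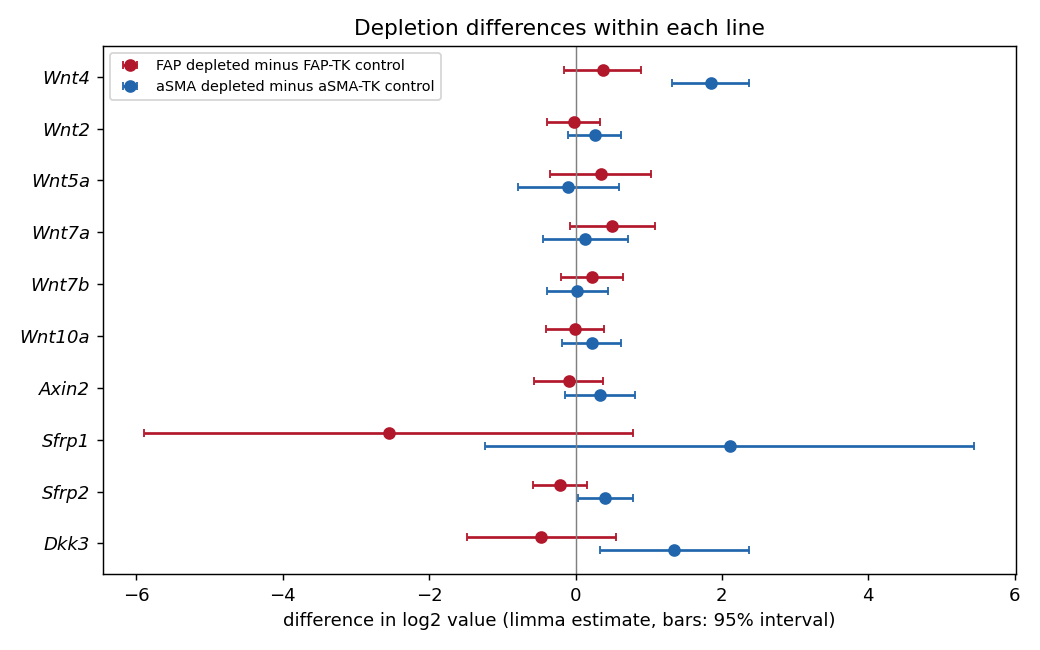
Difference in log2 value between depleted and control tumours for the 10 genes (x axis, limma estimate with 95% interval), FAP line in red and aSMA line in blue. The intervals of Wnt4, Sfrp2 and Dkk3 in the aSMA line lie above 0, and those of all 10 genes in the FAP line include 0.

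Counted over the 10 genes, 9 were higher in the tumours labelled aSMA depleted, as were 53.2% of all genes, and 1, Wnt5a, was lower. The median difference of the 10 was 0.30 against 0.01 over all genes. None passed over all genes, as for 0 of all 30142 genes. At an unadjusted p under 0.05, 3 of the 10 genes (Wnt4, Sfrp2, Dkk3) and 4.81% of all genes stood out. These 3 were higher, and 2.47% of all genes were higher with an unadjusted p under 0.05. Depleted and control tumours did not overlap for 4 of the 10, Wnt4, Sfrp1, Sfrp2 and Dkk3, all of them higher, where 7.43% of all genes did so in that direction. The genes were listed with such results known, so the excess over the background is not evidence about them. In the FAP line 4 of the 10 were higher and 6 lower, where 59.9% of all genes were higher. The median difference of the 10 was -0.01 against 0.04 over all genes. Of the 10, 0 passed, 0 had an unadjusted p under 0.05 (3.71% of all genes did) and 0 separated the groups (8.10% of all genes did). For the difference between the effects, 0 of the 10 genes passed and 3, Wnt4, Sfrp2 and Dkk3, had an unadjusted p under 0.05, against 5.96% of all genes. These 3 were positive, and 2.09% of all genes were positive with an unadjusted p under 0.05.

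**Figure D4:**
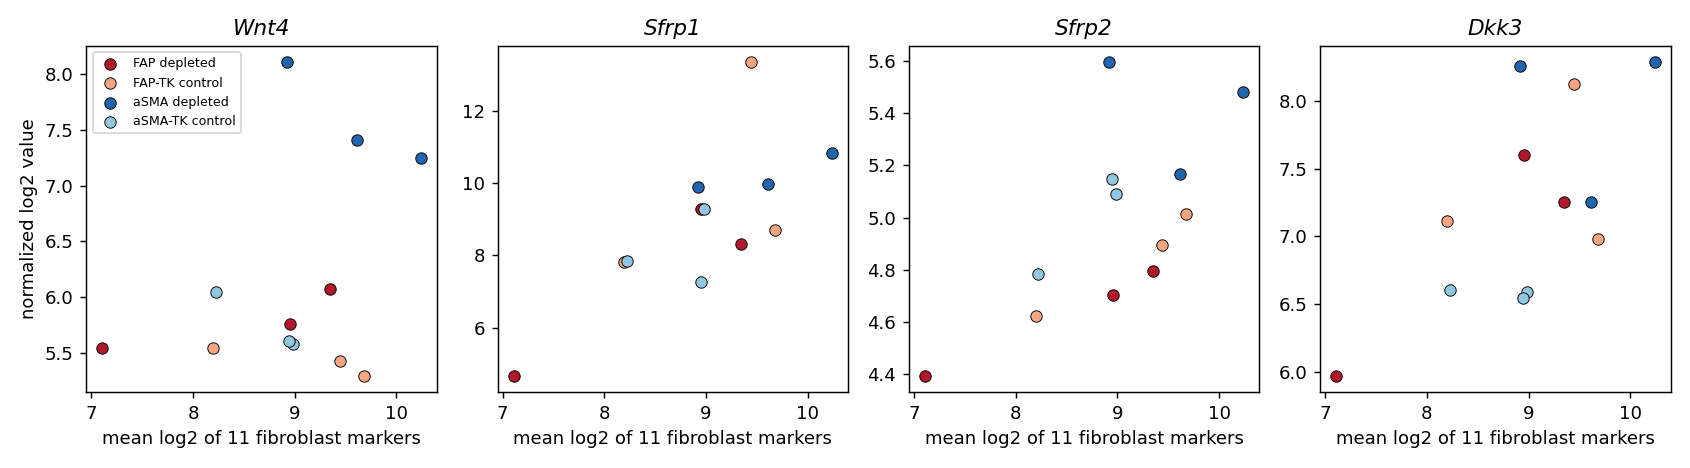
Normalized log2 value of Wnt4, Sfrp1, Sfrp2 and Dkk3 (y axes, own range each) against the mean log2 value of 11 fibroblast markers in the same tumour (x axis), 12 tumours by group. FAP depleted replicate 2, at a fibroblast mean of 7.11, is lowest for Sfrp1, Sfrp2 and Dkk3. Its array had the lowest control-probe separation, 2.69. The Wnt4 values of 7.25 to 8.12 belong to the tumours labelled aSMA depleted.

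Marker values are given beside those of Sfrp1, Sfrp2 and Dkk3. In the FAP line 10 of 11 fibroblast markers were lower, with a median of -0.57, and the list mean was 8.95, 7.11 and 9.35 in the depleted tumours against 8.20, 9.44 and 9.68 in the controls. The arrays of low control-probe separation were FAP depleted replicate 2, at 7.11, and FAP-TK control replicates 1 and 3, at 8.20 and 9.68. Smooth muscle and pericyte markers had 10 of 10 members higher in the tumours labelled aSMA depleted, with a median of 0.70, and 2 of the 10 were above background on at least 6 arrays. Their list mean was 7.00, 8.16 and 8.42 in the tumours labelled depleted against 7.40, 7.00 and 6.91 in the controls. Macrophage markers were higher in the tumours labelled aSMA depleted for 8 of 8, with a median of 0.55. In the FAP depleted tumours 12 of 12 ductal epithelial markers and 11 of 11 acinar markers were higher, with medians of 0.89 and 1.92. None of these markers passed. Their part in the values of Sfrp1, Sfrp2 and Dkk3 was not tested.

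Between the controls of the lines, 0 of the 10 genes passed, where 7.80% of all genes did. Wnt4 and Wnt7b were higher in the aSMA-TK controls without overlap, as were 21.3% of all genes, and Dkk3 was lower without overlap, as were 13.8%. Wnt7b was 4.49, 4.44 and 4.69 in the aSMA-TK controls against 4.20, 4.40 and 4.03 in the FAP-TK controls. Of the 10 genes 6 were higher in the aSMA-TK controls after quantile normalization, 3 with median centring and 0 with the values as deposited, whose median over all genes was -0.39, so most of these directions depended on the scaling. Dkk3 was lower in the aSMA-TK controls under each of these scalings, at -0.82, -1.31 with median centring and -1.76 as deposited. After quantile normalization, 58.2% of all genes were higher in the aSMA line between the controls and 55.2% between the groups labelled depleted. Between the groups labelled depleted, 9 of the 10 were higher in the aSMA line after quantile normalization or median centring and 4 with the values as deposited. Wnt4, Sfrp1 and Sfrp2 were higher there without overlap, as were 18.2% of all genes.

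The rest of the pathway was read from 84 other genes, of which 77 were measured and 12 were above background on at least 6 arrays. They are 13 further ligands, the secretion factors Porcn and Wls, 16 receptors, 7 R-spondin and Lgr genes, 13 further secreted inhibitors, transducers, and targets. In the FAP line 0 passed, and 51 were higher and 26 lower, where 59.9% of all genes were higher. The median of the 77 was 0.06 against 0.04 over all genes. Within the aSMA line 0 passed, and 54 were higher and 23 lower, where 53.2% of all genes were higher. The median of the 77 was 0.08 against 0.01. The 13 further ligands were above background on at least 6 arrays in 0 cases, and 8 were higher and 5 lower in each line. Of these ligands Wnt3 alone did not overlap between the FAP groups, being higher in the depleted tumours (0.15 ± 0.09), where 8.10% of all genes did not overlap. Among 14 measured further targets and feedback genes, 9 were higher and 5 lower in the FAP depleted tumours, and 11 were higher and 3 lower in the tumours labelled aSMA depleted.

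Named by the smallest unadjusted p, the receptor gene Fzd7 was at 0.60 ± 0.22 in the FAP depleted tumours, the corepressor gene Tle1 at 0.33 ± 0.15 and the target Myc at 1.16 ± 0.56. On the lower side Nkd2, an inhibitor that binds Dishevelled, had 6.76, 5.61 and 6.35 in the depleted tumours against 7.23, 7.83 and 6.91 in the FAP-TK controls (-1.08 ± 0.44), without overlap. The antagonist gene Sfrp4 was at -0.24 ± 0.15 and Ror2, a receptor for Wnt5a, at -0.37 ± 0.29. The related receptor gene Ror1 had 7.38, 7.07 and 7.05 in the tumours labelled aSMA depleted against 5.72, 5.79 and 5.88 in the aSMA-TK controls (1.37 ± 0.39, unadjusted p = 0.00598). These groups did not overlap. The antagonist gene Draxin was at 0.39 ± 0.10 and the R-spondin gene Rspo3, a potentiator of Wnt signals, at 0.37 ± 0.16. On the lower side the receptor gene Fzd2 was at -0.33 ± 0.18, Ephb3, a target in intestinal epithelium, at -0.25 ± 0.16, and Lgr4, an R-spondin receptor, at -0.80 ± 0.52. By limma none of the 12 passed over all genes (adjusted p = 1.00 in the FAP line and 0.944 in the aSMA line). Draxin, higher, and Lgr4, lower, also did not overlap between the aSMA groups. Of the 77 genes, 3 were higher and 1 lower without overlap in the FAP line, where 8.10% of all genes did not overlap. In the aSMA line 7 were higher and 1 lower without overlap, where 7.43% of all genes were higher without overlap. Among the 12 named genes, only Myc (8 arrays) and Lgr4 (12) were above background on any array.

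Between the lines some of these genes passed. Of the 77, 6 were called higher and 0 lower in the aSMA-TK controls, where 4.78% of all genes were called higher, and 2 were called higher and 1 lower in the tumours labelled aSMA depleted, where 2.74% of all genes were called higher and 2.44% lower. Sostdc1, a secreted inhibitor of Wnt and BMP signals, was higher in the aSMA-TK than in the FAP-TK controls by 1.02 ± 0.12 (adjusted p = 0.00512) and in the tumours labelled aSMA depleted than in the FAP depleted tumours by 1.06 ± 0.12 (adjusted p = 0.00516). Both calls held with the values as deposited and with median centring. Ascl2, a target and transcription factor of intestinal stem cells, was higher by 0.83 ± 0.11 in the controls (adjusted p = 0.00653) and by 0.76 ± 0.11 in the depleted groups (adjusted p = 0.00961), and the second difference was 0.17 with the values as deposited (adjusted p = 0.121). In the controls Fzd2, Fzd7, Tle1 and Wnt9b also passed on the higher side, and none of these 4 did with the values as deposited, where Fzd7, Tle1 and Wnt9b turned negative. Fzd9 was lower in the tumours labelled aSMA depleted than in the FAP depleted tumours by -0.51 ± 0.12 (adjusted p = 0.0421), also under the other scalings. By the negative-control measure all 7, Sostdc1, Ascl2, Fzd2, Fzd7, Tle1, Wnt9b and Fzd9, were below background on all arrays. Line and array background cannot be told apart.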

How the data were processed

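Each of 12 tumours, 3 in each of 4 groups taken from the genotype label, was measured on 1 array. The deposited values run from 1.64 to 19.93 and were taken as log2 intensities from their range. Per the submitters' processing notes limma was used by the authors; how the values were normalized is not given in the sources used here. Because the arrays' distributions differed, the 65956 probe sets other than 6732 controls were quantile normalized. Of 32750 listed probe sets 30604 had 1 symbol and 2146 several; a further 33206 are not in the probe table. RefSeq (GRCm38.p6) supplied current symbols. The probe set of highest mean was kept, giving 30142 genes. limma 3.58.1 in R 4.3.3 fitted 1 mean per group over all 12 arrays, with two-sided moderated tests adjusted by Benjamini-Hochberg over all genes and called at an adjusted p under 0.05. The fit was tested on simulated data. The genes, lists and the rule for named genes (all 10, pathway genes called or of smallest p, and the 2 most alike genes of a member above background on a whole group) were chosen with earlier results of these data known. Alternatives were other scalings, filters, variance models, array weights, and arrays left out. The number of arrays limits the precision.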

Additional observations from a re-analysis of the deposited data

How the results depend on the processing

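No paired analysis was possible because the labels give the groups no shared replicate numbers. The count of genes called over all genes was 0 in the FAP line (0 to 4 with 1 array left out, 13 without the 3 arrays of low control-probe separation), 0 in the aSMA line (0 to 16) and 0 for the difference between the effects (0 to 1). Between the controls it was 2350, with 508 to 3130 on leaving out 1 array, 12443 with the values as deposited, 5769 with median centring, 0 of 4518 genes above background on at least 3 arrays, 212 with only the groups compared, 6658 with array weights and 357 without the 3 arrays. Between the depleted groups it was 1562, with 374 to 1874, 14287, 3391, 18, 1, 4502 and 634 in the same order of settings. Of the calls between the controls 61.3% were higher in the aSMA line, against 3.41% as deposited and 57.9% with median centring; between the depleted groups the shares were 52.9%, 2.32% and 64.9%. Wnt4 between the groups labelled depleted ran from 1.11 to 1.97 over the alternatives, with adjusted p from 0.00175 to 0.0659. Sfrp2 in the same comparison also fell short of its call with median centring (0.67, adjusted p = 0.0502), with the groups compared alone (adjusted p = 0.0950), without the 3 arrays (adjusted p = 0.0857) and with sex as a covariate, chosen after the data were seen (adjusted p = 0.0605). Calls gained between the controls were Wnt2 (-0.55), Axin2 (-0.83) and Dkk3 (-1.76) as deposited and Wnt5a (0.75) with array weights. Without the 3 arrays, with replicate 2 the only FAP-TK control left, the Sfrp1 difference between the controls was -5.24. Between the depleted groups Wnt7a passed as deposited at -0.93. Wnt2 and Wnt7b were also called there in 1 setting each, neither with 1 array left out. Their differences as deposited were -0.34 and -0.42. By the strict negative-control measure, low signal over background limits 9 of the 10 genes.

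The following results changed sign, and the cause was not tested. With the values as deposited, FAP depleted minus FAP-TK control gave 0.0137 for Wnt10a; the group labelled aSMA depleted minus aSMA-TK control gave -0.0276 for Wnt7b; aSMA-TK minus FAP-TK controls gave -0.47 for Wnt4, -0.16 for Wnt5a, -0.54 for Wnt7a, -0.14 for Wnt7b, -0.12 for Wnt10a, -0.49 for Sfrp2; the group labelled aSMA depleted minus FAP depleted gave -0.34 for Wnt2, -0.52 for Wnt5a, -0.42 for Wnt7b, -0.00939 for Wnt10a, -0.32 for Axin2. With median centring, FAP depleted minus FAP-TK control gave 0.0126 for Wnt10a; aSMA-TK minus FAP-TK controls gave -0.0236 for Wnt4, -0.0874 for Wnt7a, -0.0455 for Sfrp2. With array weights, FAP depleted minus FAP-TK control gave 0.0212 for Wnt2, 0.11 for Wnt10a, 0.0380 for Axin2, 0.23 for Dkk3; the group labelled aSMA depleted minus aSMA-TK control gave -0.0662 for Wnt7b; aSMA-TK minus FAP-TK controls gave 0.0491 for Axin2; the group labelled aSMA depleted minus FAP depleted gave -0.20 for Wnt5a, -0.0816 for Wnt7b. Without the 3 arrays of low control-probe separation, with replicate 2 the only FAP-TK control left, FAP depleted minus FAP-TK control gave 0.12 for Wnt10a. In that setting aSMA-TK minus FAP-TK controls gave -0.21 for Wnt7a. The group labelled aSMA depleted minus FAP depleted gave -0.20 for Wnt5a and -0.0308 for Wnt7b there. With 1 array left out at a time, FAP depleted minus FAP-TK control ran from -0.16 to 0.0991 for Wnt2, -0.12 to 0.0942 for Wnt10a, -0.79 to 0.0212 for Dkk3. Likewise the group labelled aSMA depleted minus aSMA-TK control ran from -0.15 to 0.12 for Wnt7b, -0.26 to 0.0168 for Wnt5a, -0.0650 to 0.28 for Wnt7a. Likewise aSMA-TK minus FAP-TK controls ran from -0.0374 to 0.26 for Wnt7a, -0.18 to 0.0330 for Axin2, -0.15 to 0.00991 for Wnt2, -0.0265 to 0.26 for Wnt10a. Likewise the group labelled aSMA depleted minus FAP depleted ran from -0.20 to 0.36 for Wnt5a, -0.0457 to 0.23 for Wnt7b. Sfrp1 in the FAP line turned to 0.54 without both replicates 2.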
